A study of Mus musculus with 4 samples.

Results

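Chromatin accessibility was examined at 10 genes around JNK1, the kinase encoded by Mapk8, in keratinocytes that carried or lacked Mapk8. The 10 genes were the paralogues Mapk9 and Mapk10, the kinases Map2k4 and Map2k7, the upstream kinases Map3k1, Map3k5, Map3k7 and Map3k11, and the scaffolds Mapk8ip1 and Mapk8ip3. ATAC-seq peaks of 4 libraries were merged where they overlapped by at least 1 bp, and the regions overlapping a gene body or the 25 kb on either side were kept. This gave 78 of 82641 regions, 35 of them over a gene body and 43 in the flanks, and no region was shared by 2 of the genes. The members were listed by name, with no threshold on a measured value. At the edge of the window, the outermost region kept lay 24910 bp from Map3k11 and the nearest region left out lay 25671 bp from Map2k7 and was called in 1 library (WT 1).

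ATAC-seq uses the Tn5 transposase to insert sequencing adapters into open chromatin. All mice were females aged 8 to 12 weeks whose shaved abdominal skin received a cream with 5% imiquimod (Aldara), which activates Toll-like receptor 7 and gives a psoriasis-like inflammation, on 8 days in a row. EpCam+ CD49f-high epidermal cells were sorted from dissociated skin. There were 2 libraries labelled Wild Type (WT) and 2 labelled Mapk8-KO. The knockout mice were K14-Cre Mapk8 fl/fl, in which the keratin 14 promoter restricts Cre, and so the deletion, to keratin 14 expressing epithelial cells and leaves Mapk8 in other cells of the skin. No untreated skin was examined here. The sources used here do not say whether a library came from 1 mouse or from pooled mice, so the p-values refer to libraries and not to mice. In the limma test used below, the spread between libraries at a region was moderated by a variance trend over all regions tested. The series' own design text counts 6 samples, but the series as used here lists 4, and all 4 were analysed.

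JNK kinases are the last tier of a stress-activated cascade. MAP3 kinases such as MEKK1, ASK1, TAK1 and MLK3 respond to cytokines, Toll-like receptors and oxidative stress, and they phosphorylate the MAP2 kinases MKK4 and MKK7. These phosphorylate both a threonine and a tyrosine in the activation loop of a JNK, which then phosphorylates c-Jun, a subunit of the AP-1 transcription factor. JIP scaffold proteins hold kinases of the cascade together. JNK1 and JNK2 are found in most tissues, while JNK3 is best known from the nervous system.

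The peak lists held 69927 and 54856 peaks in the first and second WT library (WT 1 and WT 2), and 69583 and 49856 in the first and second knockout library (Mapk8-KO 1 and Mapk8-KO 2). Where 4 values are given in a row below, they follow this order. For each peak the summit pileup, the number of fragments over its highest base, was recovered from the deposited fold enrichment and p-value. Median pileups were between 26 and 36 fragments. Depth relative to WT 1 was 0.694 for the other WT library and 1.12 and 0.646 for the knockout libraries, so the second library of each genotype was the shallower one. Promoters of 6 of 7 keratinocyte marker genes were called in all 4 libraries, and that of Krt5 in 3. None of 5 leukocyte markers had a promoter region in any library. Of the 3 markers each for endothelial cells, fibroblasts and melanocytes, 1, 2 and 2 were called in all 4 libraries, while Cdh5, Lum and Tyr were in none. The summed pileup relative to depth was 50, 77.8, 58.2 and 34.0 for the endothelial list, 63, 69.1, 73.4 and 69.6 for the fibroblast list and 93, 90.7, 104 and 116 for the melanocyte list. The last 2 lists were slightly higher in both knockout libraries. The keratinocyte list summed to 309 and 271 in WT and to 453 and 436 in Mapk8-KO, but without Krt14 the sums were 271, 246, 275 and 268 in the same order. Krt14 itself had pileups of 38, 17, 199 and 109. The Cre transgene carries a keratin 14 promoter, and whether it added to these pileups was not tested. Whether any of these lists had a part in the results below was not tested.

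The promoter of the deleted gene itself, Mapk8 (chr14:33446898-33447591), was called in all libraries. Its pileup was 96 and 73 fragments in WT and 109 and 90 in Mapk8-KO. The difference, Mapk8-KO minus WT, was 0.26 on the log2 scale (SE 0.18, limma with Benjamini-Hochberg adjustment over all regions, adjusted p = 0.615). The floxed exons are not given in the sources used here, so a promoter peak does not check the deletion. From RNA-seq of sorted keratinocytes, the study reports a truncated Mapk8 mRNA in the knockout.

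Of the 78 regions, the 48 called in all 4 libraries were tested for a difference in accessibility. Mapk10, which encodes JNK3, gave the one region that differed between genotypes after correction. It was also the only region within 25 kb of the gene. It spanned 466 bp (chr5:103231776-103232241) and lay 20442 bp upstream of the Mapk10 start, in an intron of the transcript 4930429D17Rik, with Mapk10 as the nearest start site. The 201 bases around its summit, on the + strand of mm10, are shown because they hold 2 copies of the AP-1 motif, TGACTCA or TGAGTCA, in capitals.
Mapk10 upstream region, chr5:103231890-103232090: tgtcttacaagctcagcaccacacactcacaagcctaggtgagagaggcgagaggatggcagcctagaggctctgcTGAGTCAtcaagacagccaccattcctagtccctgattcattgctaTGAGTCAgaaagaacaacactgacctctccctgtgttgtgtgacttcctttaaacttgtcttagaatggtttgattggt
AP-1 dimers of Jun and Fos family proteins bind this motif. A match is a description of the letters and not a measured binding site.

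The summit pileup of the Mapk10 upstream region was 67 and 50 fragments in the WT libraries and 37 and 15 in the knockout libraries. Relative to depth it was 67, 72, 33.1 and 23.2, or 69.5 ± 3.54 in WT and 28.2 ± 7.01 in Mapk8-KO (SD, n = 2 each). Both knockout libraries were therefore below both WT libraries, and the groups did not overlap. The fold enrichment over the local background given by the peak caller was 16.9, 14.5, 10.2 and 6.23 in the same order. Ranked within each library's own list, the region stood at percentiles 98.4 and 94.8 in WT, among the strongest peaks, and at 75.7 and 34.8 in the knockout. The accessibility in Mapk8-KO was 0.413 times that in WT (95% CI 0.293 to 0.581), a log2 difference of -1.28 (SE 0.25, limma, adjusted p = 0.00106 by Benjamini-Hochberg over the 40159 regions called in all 4 libraries). It ranked at position 27 by p-value among these regions, and 13 of them had a log2 difference this low or lower. An exact permutation test of this single value gave p = 0.33, the smallest that 2 libraries against 2 allow. The call was kept without Mapk8-KO 1 and lost without any other library. Without WT 1 the adjusted p from limma was 0.0638, without WT 2 it was 0.306, and without Mapk8-KO 2 it was 0.0747, with log2 differences of -1.36, -1.21 and -1.02. It was also lost when the fold enrichment replaced the pileup (log2 difference -0.93, adjusted p = 0.265) and without the variance trend (adjusted p = 0.169). Under these 2 settings limma called 0 of all 40159 regions, with 2731 and 3987 at an unadjusted p under 0.05.

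The body of Mapk10 itself, 303 kb long, held no peak in any library, and neither did its promoter. This came to 0.283 regions per 100 kb of Mapk10 and its flanks, against 3.03 per 100 kb over all regions of the genome. At Mapk9, which encodes JNK2, the promoter was among the most accessible of the 10 genes. The 250 bases upstream of a RefSeq start of each paralogue (mm10) are shown, with CG dinucleotides in capitals. They set the open promoter of Mapk9 beside that of Mapk10, where no region was called.
Mapk9, chr11:49846501-49846750, + strand: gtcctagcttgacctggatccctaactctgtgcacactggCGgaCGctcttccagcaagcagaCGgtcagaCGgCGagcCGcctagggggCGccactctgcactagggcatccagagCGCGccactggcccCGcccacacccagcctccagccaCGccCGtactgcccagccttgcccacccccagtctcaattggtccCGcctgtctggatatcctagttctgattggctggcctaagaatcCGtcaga
Mapk10, chr5:103211335-103211584, - strand: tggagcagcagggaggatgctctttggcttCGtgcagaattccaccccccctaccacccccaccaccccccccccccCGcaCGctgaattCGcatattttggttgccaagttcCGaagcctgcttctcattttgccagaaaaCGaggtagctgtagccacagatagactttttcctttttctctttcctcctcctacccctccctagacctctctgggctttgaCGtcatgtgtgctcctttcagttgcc
Over the whole RefSeq promoter windows of 300 bases, which add the 50 bases after the start, Mapk9 holds 23 CG dinucleotides and Mapk10 holds 8. A second Mapk10 window, at a start 152942 bp into the gene, holds 2 and overlaps no region. The median over all 32851 such windows was 7. Of the 10 genes, 9 were matched to such a window. The Mapk10 window at the gene start also holds the cyclic AMP response element palindrome TGACGTCA, a motif bound by CREB family factors.

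**Figure D1:**
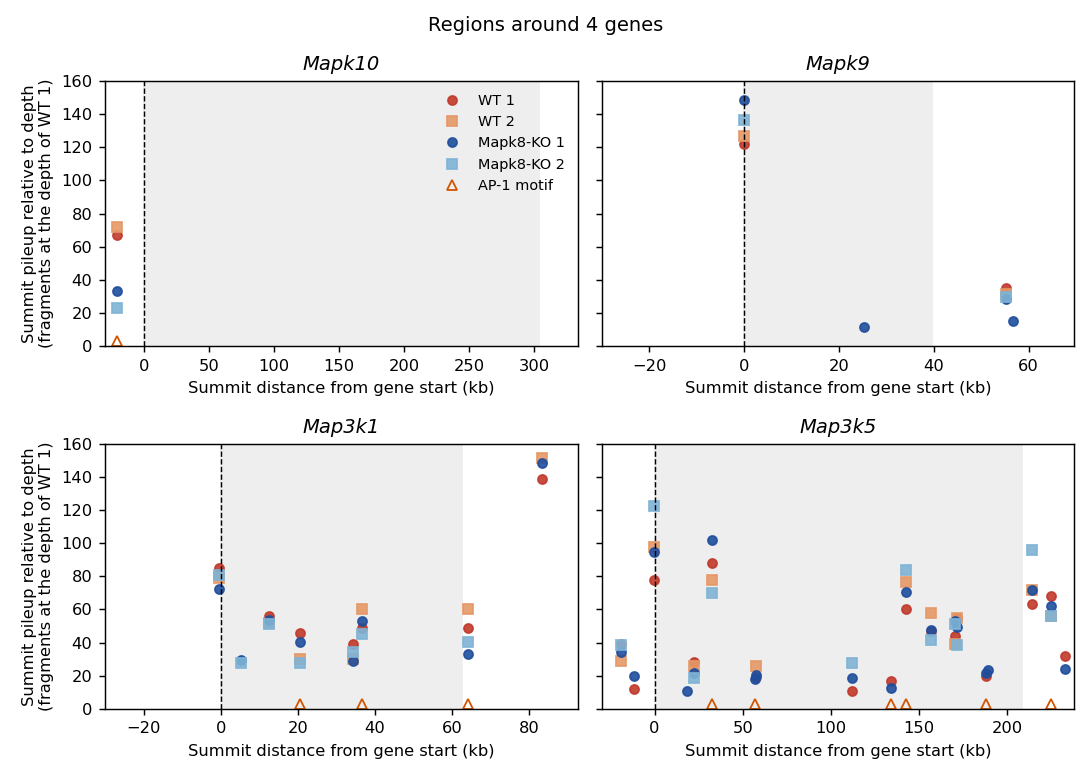
Summit pileup relative to depth (y axis, fragments at the depth of WT 1) against the distance of the summit from the gene start (x axis, kb; positive into the gene, grey band for the gene body) at Mapk10, Mapk9, Map3k1 and Map3k5. Each point is 1 called region in 1 library and open triangles at the base mark regions with an AP-1 motif. At Mapk10 a single upstream region is seen, with WT at 67 and 72 and Mapk8-KO at 33.1 and 23.2.

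The paralogue Mapk9 had 4 regions. Its promoter (chr11:49846347-49847160) had pileups of 122, 88, 166 and 88 fragments. Relative to depth these were 122, 127, 149 and 136, so both knockout libraries were above both WT libraries. The log2 difference was 0.24 (SE 0.17, limma, adjusted p = 0.628), or 1.18-fold with a 95% CI of 0.935 to 1.5. The promoter stood between percentiles 91.0 and 94.3 in all lists. In the gene body outside promoters, the one region (chr11:49872012-49872211, intron) was called in Mapk8-KO 1 alone, with 13 fragments at percentile 9.9.

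Of the 10 genes, 8 had a promoter of their own (a region within 2 kb of one of their starts) called in all 4 libraries, and Mapk10 and Mapk8ip1 had none. The 8 promoters had a GC content of 56.7% to 75.6% around the summit. Their median percentile was 74.7, 88.3, 90.02 and 85.3 (the first value includes a ninth, weak Map2k4 promoter region called in WT 1 alone). The order by mean pileup relative to depth was Mapk9 (133), Map2k7 (110), Map3k7 (99.0), Map3k5 (98.3), Map2k4 (94.4), Map3k1 (79.3), Map3k11 (50.8) and Mapk8ip3 (36.6). The pileup is read at a single base and so does not grow with gene length. From Map2k7 to Map3k1, neighbours in this order differed by less than the larger of their SDs over the 4 libraries (18.2 to 19.7). The log2 difference, Mapk8-KO minus WT, was above 0 for 7 of the 8 and below 0 for Map3k1, from -0.06 to 0.35 with a median of 0.26. For Map2k4 it was 0.01 and the mean pileups relative to depth, 95.2 in WT and 93.6 in Mapk8-KO, had the opposite order. None passed limma's test (lowest unadjusted p = 0.0612, adjusted p between 0.475 and 0.996). The widest 95% CI ended at a 1.84-fold higher level in Mapk8-KO (Mapk8ip3), and the lowest bound was 0.736-fold (Map3k1). Promoters of all genes in the genome were also shifted upward, with a median log2 difference of 0.14 over 14530 promoters, 10547 of them above 0.

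**Figure D2:**
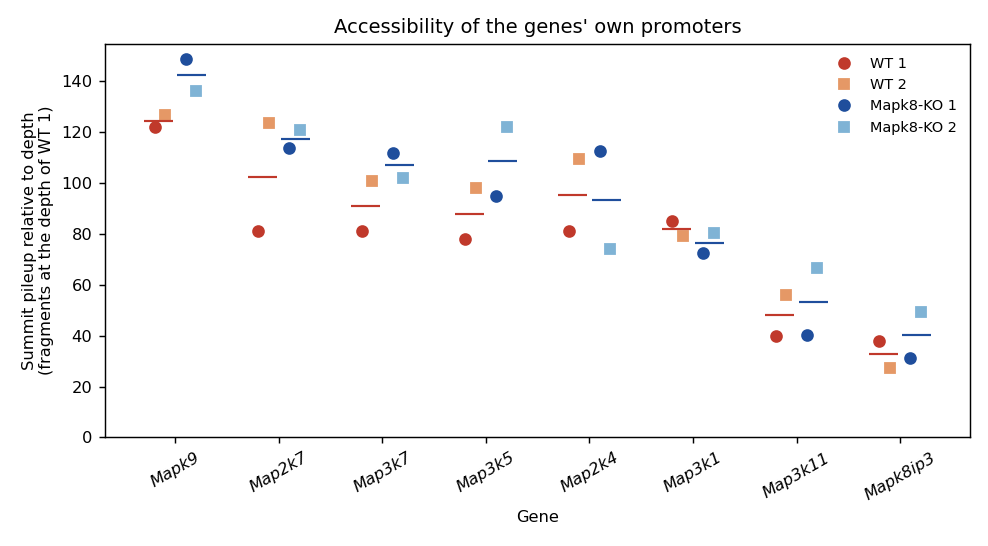
Summit pileup relative to depth (y axis, fragments at the depth of WT 1) of the 8 own promoters called in all libraries, ordered by their mean. Points are the 4 libraries and lines the means of the 2 libraries of each genotype. The highest is Mapk9 and the lowest Mapk8ip3, with means of 133 and 36.6, and no promoter differed between genotypes after correction.

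The MAP2 kinases were next. MKK4, encoded by Map2k4, phosphorylates both JNK and p38 kinases. Its promoter (chr11:65787788-65788849) had pileups of 81, 76, 126 and 48, and the log2 difference of 0.01 (SE 0.19, limma, adjusted p = 0.996) was near 0. Of 10 regions around Map2k4, 5 were called in all libraries, with log2 differences from -0.16 to 0.16. MKK7, encoded by Map2k7, acts on JNK kinases alone. Its promoter (chr8:4238109-4239472) had pileups of 81, 86, 127 and 78 and a log2 difference of 0.27 (SE 0.18, limma, adjusted p = 0.595). Around this short gene of 9.16 kb, 7 regions were found, 6 of them in the flanks at genes such as Snapc2 and Ctxn1. The 6 regions called in all libraries spanned log2 differences from -0.01 to 0.27.

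Among the MAP3 kinases, Map3k5 (ASK1, activated by oxidative stress) had the most regions. There were 19 over 208 kb and its flanks, 14 of them in the gene body. The number called was 16, 11, 19 and 11, highest in the deeper library of each genotype. Its promoter (chr10:19933492-19934529) had pileups of 78, 68, 106 and 79, for the largest log2 difference of the own promoters at 0.35 (SE 0.19, limma, adjusted p = 0.475). The strongest intronic region (chr10:19966799-19967465) had pileups of 88, 54, 114 and 45 and percentiles of 89.5, 89.4, 95.04 and 79.5. Its log2 difference was 0.08 (SE 0.19, limma, adjusted p = 0.925). Another intronic region (chr10:20105639-20106219) stood at percentiles 69.5 and 68.5 in WT and 54.8 and 32.0 in Mapk8-KO, with pileups of 55, 38, 55 and 25. It was lower in both knockout lists by rank, but its pileup did not pass the test (log2 difference -0.28, SE 0.24, limma, adjusted p = 0.704).

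Map3k1 encodes MEKK1, which can act on both MAP2 kinases of the JNK pathway. Its promoter (chr13:111808581-111809893), shared with Gm15327, had pileups of 85, 55, 81 and 52, with a log2 difference of -0.06 (SE 0.20, limma, adjusted p = 0.951). A region 1423 bp beyond the 3′ end of the gene (chr13:111744589-111745004) had pileups of 49, 42, 37 and 26. Relative to depth these were 49, 60.5, 33.1 and 40.2, with both WT libraries above both knockout libraries. It stood at percentiles 90.5 and 95.6 in WT and at 79.3 and 73.9 in Mapk8-KO. The log2 difference was -0.53 (SE 0.25, limma, unadjusted p = 0.0349), or 0.693-fold, and it did not pass the correction (adjusted p = 0.396). Like the Mapk10 upstream region, it holds an AP-1 motif. In an intron, a region of 313 bp (chr13:111803474-111803786) was called in both knockout libraries, with 33 and 18 fragments at percentiles 8.8 and 3.6, and in neither WT library.

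The sequences of the AP-1 regions named for the other genes are given here for comparison with that of Mapk10, each as 201 bases around the summit on the + strand of mm10 with the motif in capitals.
Map3k1 downstream region, chr13:111744720-111744920: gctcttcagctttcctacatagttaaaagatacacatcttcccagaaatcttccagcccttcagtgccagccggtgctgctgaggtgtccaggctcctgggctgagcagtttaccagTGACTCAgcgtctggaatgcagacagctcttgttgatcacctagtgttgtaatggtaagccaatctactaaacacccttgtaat
Map3k1 intron, chr13:111772191-111772391: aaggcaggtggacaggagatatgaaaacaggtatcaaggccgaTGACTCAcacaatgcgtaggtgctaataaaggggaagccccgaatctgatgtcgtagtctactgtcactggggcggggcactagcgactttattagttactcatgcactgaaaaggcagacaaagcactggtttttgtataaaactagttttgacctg
Map3k5 intron, chr10:19967136-19967336: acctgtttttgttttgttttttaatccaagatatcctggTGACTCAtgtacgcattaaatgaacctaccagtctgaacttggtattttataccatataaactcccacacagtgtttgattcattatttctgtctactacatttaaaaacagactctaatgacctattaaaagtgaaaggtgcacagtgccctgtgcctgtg
Map2k4 intron, chr11:65740347-65740547: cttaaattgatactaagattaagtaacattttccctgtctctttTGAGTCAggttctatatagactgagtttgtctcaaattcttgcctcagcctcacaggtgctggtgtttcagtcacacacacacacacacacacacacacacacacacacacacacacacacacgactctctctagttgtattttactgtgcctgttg
Mapk8ip3 intron, chr17:24929623-24929823: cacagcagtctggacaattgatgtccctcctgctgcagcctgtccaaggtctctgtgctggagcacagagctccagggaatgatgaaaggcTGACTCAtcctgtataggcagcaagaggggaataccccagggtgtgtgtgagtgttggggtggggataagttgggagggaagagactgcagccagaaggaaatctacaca
Each of these holds 1 copy within the window. Of the 18 regions with the motif among the 78, 3 hold 2 copies, that of Mapk10 included. The Map3k1 intronic region had pileups of 49, 42, 59 and 29 (log2 difference -0.11, SE 0.23, limma, adjusted p = 0.903). The Map2k4 intronic region had 38, 25, 35 and 21 (log2 difference -0.16, SE 0.28, limma, adjusted p = 0.873). The Mapk8ip3 intronic region had 37, 22 and 24 fragments and was not called in Mapk8-KO 2, so it was not tested.

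Map3k7 encodes TAK1, which acts below interleukin 1, TNF and Toll-like receptors on both the JNK and the NF-kappaB pathway. Its promoter (chr4:31963529-31964480) had pileups of 81, 70, 125 and 66. Relative to depth both knockout libraries (112 and 102) were above both WT libraries (81 and 101), by a margin smaller than the spread within WT. The log2 difference was 0.29 (SE 0.18, limma, adjusted p = 0.571). Map3k11 encodes MLK3, a mixed-lineage kinase. Its promoter (chr19:5688471-5689990), which also covers starts of Pcnx3 and AC134563.1, had pileups of 40, 39, 45 and 43 and a log2 difference of 0.18 (SE 0.24, limma, adjusted p = 0.835). At the far edge of its window, the promoter of Sipa1 (chr19:5663288-5663831) had pileups of 19, 13, 33 and 19. Its percentiles were 40.3 and 22.1 in WT and 72.3 and 54.8 in Mapk8-KO, so it ranked higher in both knockout lists. The log2 difference of 0.69 (SE 0.31, limma, unadjusted p = 0.0265) did not pass the correction (adjusted p = 0.364).

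Of the scaffold genes, Mapk8ip3 (JIP3) had pileups of 38, 19, 35 and 32 at its promoter (chr17:24936448-24937159), with a log2 difference of 0.34 (SE 0.28, limma, adjusted p = 0.69). A weak region at the shared promoter of Eme2, Mrps34 and Nme3 inside a Mapk8ip3 intron (chr17:24894661-24895327) was called in both WT libraries, with 15 and 12 fragments at percentiles 5.4 and 15.5, and in neither knockout library. A neighbouring region near starts of the same 3 genes (chr17:24895878-24896693) was called in all 4 libraries, with pileups of 39, 20, 36 and 10. Mapk8ip1 (JIP1) had no promoter region of its own, and its 1 region in the gene body was a promoter of Mir7000. A region of 191 bp 22564 bp from Mapk8ip1 (chr2:92423828-92424018), in introns of Cry2 and D930015M05Rik, was called in both knockout libraries alone, with 43 and 25 fragments at percentiles 15.2 and 3.3. A weak region 13570 bp upstream of Map2k4 (chr11:65801868-65802160), 615 bp from a stronger one, was called in both WT libraries alone, with 34 and 20 fragments at percentiles 1.9 and 0.1.

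With the full lists, calls over all 78 regions differed more between the libraries of a genotype than between genotypes. The WT libraries had 67 (85.9%, against 83.8% of all 82641 regions) and 56 (71.8%, against 65.2%) of them called, and the knockout libraries 71 (91.0%, against 83.2%) and 53 (67.9%, against 59.1%). The means were 61.5 ± 7.78 in WT and 62 ± 12.7 in Mapk8-KO (SD, n = 2 each), a difference of -0.5 regions with p = 1 by the exact two-sided permutation test. With each list cut to the length of the shortest, 49, 53, 57 and 53 of the 78 regions were called. With the full lists, 48 regions were called in all 4 libraries (61.5%, against 48.6%), and 12 in a single library (15.4%, against 21.7%). Of these 12, 11 came from the deeper library of a genotype, 4 from WT 1 and 7 from Mapk8-KO 1. Promoters made up 30 of the 78 (38.5%, against 26.7%), 21 of which belonged only to genes other than the 10.

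**Figure D3:**
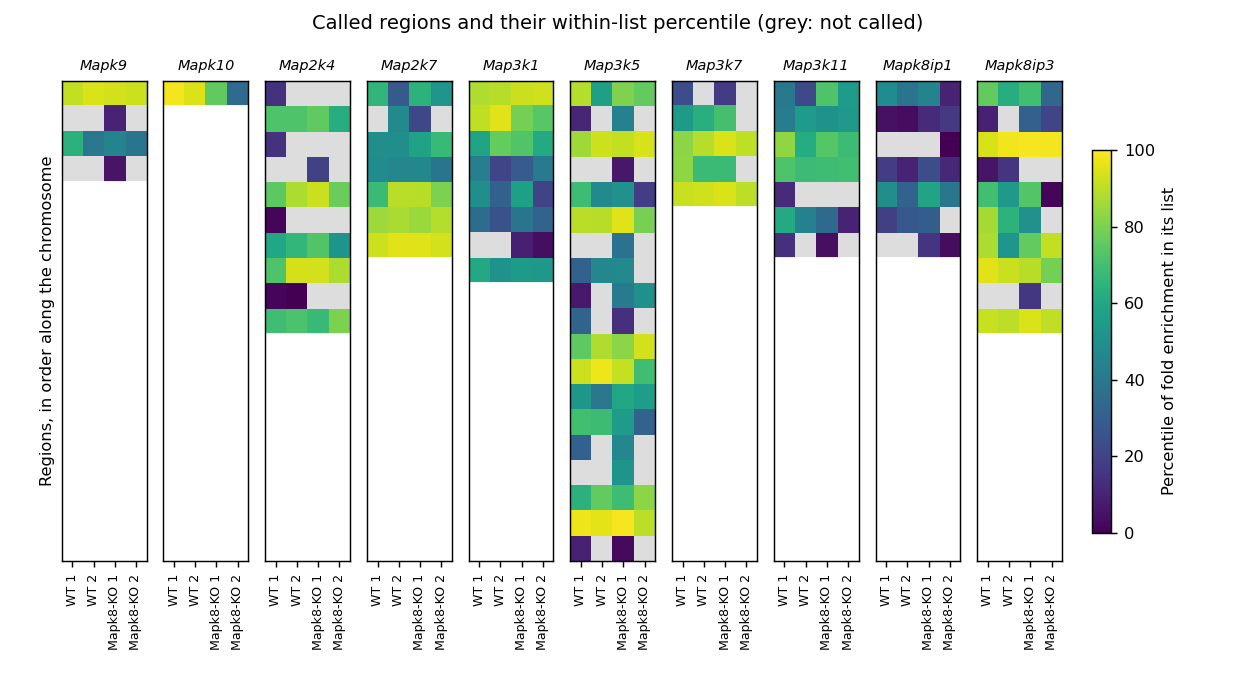
Percentile of the fold enrichment within each library's peak list (colour, 0 to 100) for the 78 regions (rows, in order along the chromosome) in the 4 libraries (columns), by gene. Grey cells were not called. Most grey cells are in WT 2 and Mapk8-KO 2, the shallower libraries, and the single region of Mapk10 runs from 98.4 in WT 1 to 34.8 in Mapk8-KO 2.

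Calls in both libraries of 1 genotype and neither of the other were rare. There were 2 WT-specific regions (2.56%, against 2.17% of all regions) and 2 Mapk8-KO-specific regions (2.56%, against 1.65%), those given above at Map2k4, Mapk8ip3, Map3k1 and Mapk8ip1, with the highest percentile of any at 15.5. Of the 48 regions called in all libraries, 3 ranked at least 10 percentile points higher in both WT lists than in either knockout list (6.25%, against 2.65%), at Mapk10, Map3k1 and Map3k5. By the same measure 1 ranked higher in Mapk8-KO (2.08%, against 3.78%), at the Sipa1 promoter near Map3k11. These are few regions on which to compare shares.

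Pileups relative to depth were higher in both WT libraries for 9 of the 48 regions (18.8%, against 20.3%) and in both knockout libraries for 7 (14.6%, against 20.4%). In limma's test 1 region was lower in Mapk8-KO (2.08%, against 0.496% of regions called higher in WT), which is the Mapk10 upstream region, and 0 were higher (against 0.110%). At an unadjusted p under 0.05 there were 4 (8.33%, against 11.3%), the others being the Map3k1 downstream region, the Sipa1 promoter and a region in an intron of Jpt2 near Mapk8ip3 (chr17:24948180-24948561), named after its values were seen, with pileups of 66, 43, 49 and 27 (log2 difference -0.53, adjusted p = 0.341 in limma). The median log2 difference was 0.07 over the 48 regions and 0.05 over all 40159. At promoters the medians were 0.23 (n = 23) and 0.14, and outside promoters -0.09 (n = 25) and -0.01.

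**Figure D4:**
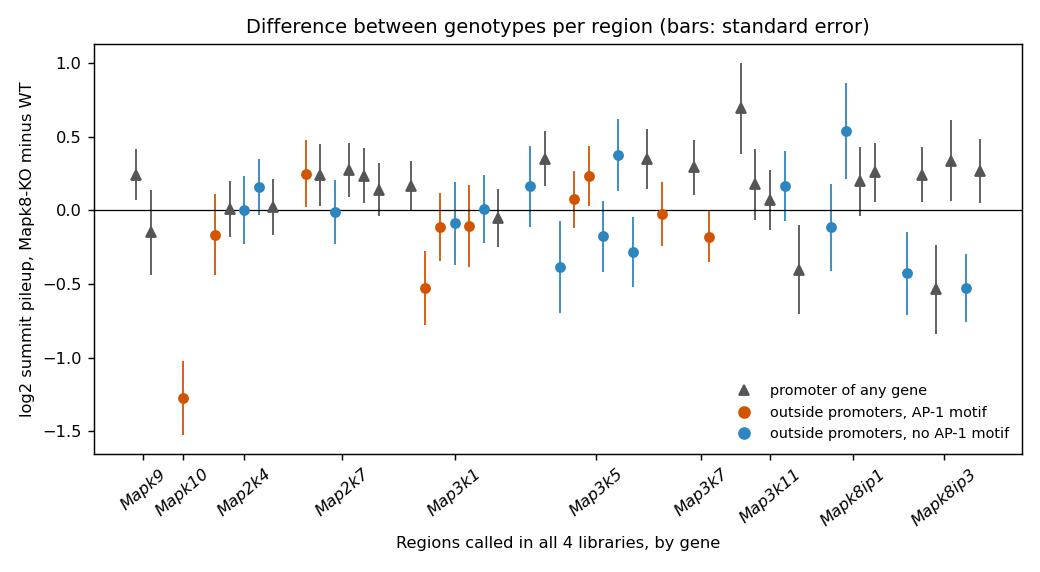
Log2 difference of the summit pileup, Mapk8-KO minus WT (y axis), with its standard error (bars) for the 48 regions called in all 4 libraries, grouped by gene and ordered along the chromosome. Triangles are promoters of any gene and circles other regions, orange where an AP-1 motif is present. The Mapk10 region at -1.28 is apart from the rest, which span -0.54 to 0.69.

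The AP-1 motif was found within 100 bp of the summit in 18 of the 78 regions (23.1%, Wilson 95% CI 15.1% to 33.6%), against 23.8% of all regions. Outside promoters it was in 16 of 48 (33.3%, against 28.1%) and at promoters in 2 of 30 (against 12.0%). The genes with most such regions were Map3k5 with 6 and Map3k1 with 3, and Mapk9 and Mapk8ip1 had none. Of the 12 AP-1 regions called in all libraries, 4 had both WT pileups above both knockout pileups (against 32.4% of all 9841 such regions) and 0 the reverse (against 10.9%). Their median log2 difference was -0.11, beside -0.08 over all regions with the motif. The CREB palindrome was in 0 of the 78 regions, against 0.773% of all regions.

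The remaining genes of the JNK cascade were read in the same way. The list held 29 other kinases, scaffolds and partners, with 250 regions and 129 called in all libraries. In limma's test 0 of these 129 differed after adjustment, 11 had an unadjusted p under 0.05 (8.53%, against 11.3% of all regions), and their median log2 difference was 0.04. Of the 250 regions 0 were WT-specific (against 2.17%) and 2 were Mapk8-KO-specific (0.8%, against 1.65%), the promoter of Map3k12 (DLK) with 22 and 17 fragments and a region at Tnik with 19 and 15. By rank, 2 were higher in WT (1.55%, against 2.65%) and 7 in Mapk8-KO (5.43%, against 3.78%). The widest gap was at the promoter of Map4k2, a kinase above the MAP3 tier, whose pileups were 12 and 13 in WT and 31 and 19 in Mapk8-KO (log2 difference 0.98, SE 0.32, limma, adjusted p = 0.143).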

How the data were processed

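ATAC-seq libraries of sorted keratinocytes (2 WT, 2 Mapk8-KO) were deposited as 1 peak list each, in mm10. According to the methods of the study, paired-end reads were mapped with Bowtie2, multi-mapping and low-quality reads were removed, and peaks were called per library with MACS2 in BAMPE mode at q 0.05 with summits (the highest q in the deposited lists was between 0.00928 and 0.0097); no control library and no Tn5 shift are given in the sources used here. The submitters' processing notes list Trimmomatic 0.36, STAR 2.5.3, Picard, SAMtools and MACS2. The deposited columns are an integer score, the fold enrichment ratio at the summit, and −log10 p-value and −log10 q-value as MACS2 wrote them. The score and the summit offset were used only to check columns and to place summits.

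The summit pileup was solved from fold and p-value and was whole within 0.05 for at least 99.996% of peaks. Peaks were merged at 1 bp overlap, and starts came from GENCODE vM21 basic. Log2 pileups, centred on each library's median, were tested with limma 3.58.1 in R 4.3.3 (variance trend, Benjamini-Hochberg, adjusted p 0.05) over the regions called in all 4 libraries, which leaves out regions lost in a group; limma was tested on simulated data. Counts per library were compared by exact permutation. Wilson intervals of shares cover counting error only, and those of fold changes come from limma's standard errors. For each gene the promoter region of highest mean pileup and the gene-body region of highest mean percentile outside promoters were named, then every region specific to, ranked higher in, or called in a group. The members and lists were chosen with earlier results of these data known. Alternatives were other flanks, overlaps, thresholds, normalizations, a replicate block and leaving out each library.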

Additional observations from a re-analysis of the deposited data

How the results depend on the processing

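With 2 libraries a group, each library carried much of each count, and pileups as low as 8 fragments limit the weak regions. The difference in regions called per library, WT minus Mapk8-KO, was -0.5. It turned to 1.5 with a 50 kb flank and to 2 with peaks covering 50% of a region, and was -4 with lists of equal length. It ran from -9.5 to 8.5 with a library left out. The 2 WT-specific regions became 1 over gene bodies alone, 0 with lists of equal length, 1 at 50% cover and 1 at q 0.001 (2 to 7 with a library left out). The 2 Mapk8-KO-specific regions became 1 over gene bodies alone (2 to 9). The 3 regions ranked higher in WT became 1 over gene bodies, 5 with percentiles among regions called in all libraries, 0 at a gap of 20 points and 5 with the replicate block (3 to 12). The 1 ranked higher in Mapk8-KO became 0 over gene bodies, 2 by −log10 p, 2 by summit pileup, 3 at a gap of 5 points and 0 at 20 (1 to 5). The 1 region changed in limma's test became 0 with log2 fold and 0 without the variance trend (0 to 1 with a library left out), and the other cascade genes ran from 0 to 2. The median log2 difference of 0.072 was 0.0073 over gene bodies, 0.038 with quantile normalization, 0.029 with log2 fold, 0.031 without WT 1, 0.047 without Mapk8-KO 2 and 0.105 without Mapk8-KO 1, the highest. The log2 difference of the Mapk10 upstream region was -0.93 with log2 fold and -1.28 without the trend, both past the threshold no longer, and -1.02 to -1.504 with a library left out. The adjusted p over the limma alternatives, which were followed for this region after its call was seen, ran from 2.4e-05 to 0.306. Over all regions the 243 limma calls became 386 with the replicate block, 29 with quantile normalization, 141 with both, 0 with log2 fold, 115 at a mean pileup of at least 20, 0 without the trend, and 10 to 1719 with a library left out. Replicate numbers are shared by the genotypes. Over the 40159 regions called in all libraries, the differences between the numbered libraries correlated at r = 0.039 between genotypes. The second library was the shallower one in both genotypes, and whether the numbers mark a batch was not tested. The replicate block kept the Mapk10 call (adjusted p = 0.000564 in limma). The causes of these changes were not tested.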
